A study of Mus musculus with 22 samples.

Results

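The genes described here are 10 products of the lining of the stomach and intestine, Pgc, Gkn1, Gkn2, Tff1, Tff2, Tff3, Fabp2, Car1, Vil1 and Retnlb. They were chosen by name, as the probes annotated with 1 of these symbols and no other gene. The choice was made with earlier results of these data known, so the counts of calls below describe the group and are no independent test of it. Each symbol had 1 such probe, so that the group makes up 10 of the 19752 genes measured. RNA came from medullary epithelial cells (MECs) of the thymus of C57Bl/6 mice, sorted as live, CD45-negative cells that were MHC class II high and Ly51 low. It was amplified and read on Affymetrix whole-transcript gene arrays. The 22 arrays form 8 groups by title. In Aire knockout mice (KO, Aire-/-), 2 arrays held Etopo Topo, 3 Topo, 2 Etopo and 3 DMSO. In wild-type mice (WT, Aire+/+), each of the same 4 treatments had 3 arrays. Etopo and Topo are the labels' names, usually short for etoposide and topotecan, inhibitors of type II and type I topoisomerases. DMSO is the usual solvent of such drugs and served as the control. Dose and duration were not used here.

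Aire is a transcriptional regulator that makes MECs express a large set of genes otherwise restricted to single organs. The protein fragments are shown to developing T cells, and cells that react strongly are removed or turned into regulatory cells. Digestive tract products belong to the antigens made this way. In their own organs the 10 genes belong to different cells, from the chief and surface mucous cells of the stomach to the absorptive and goblet cells of the intestine. Levels are log2 array intensities, and levels of different genes cannot be compared on this scale. A gene is said to have risen or fallen where its adjusted p was under 0.05 in limma, with Benjamini-Hochberg adjustment over all 19752 genes. Errors of log2 changes are standard errors (SE) of that fit.

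The median intensity per array was 236.15 to 263.57. The mean levels of 15 genes of MECs ran from the 63.2 percentile of all genes for Cd86 to the 99.96 percentile for H2-Ab1. Their lowest log2 values on any array included 12.68 for H2-Aa, 11.80 for Cd80, 9.28 for Cldn3 and 7.89 for Cd86. The Aire probe was not lower in KO, with 12.91 ± 0.04 in KO DMSO and 12.31 ± 0.11 in WT DMSO (SD, n = 3 each), so it did not check the deletion. Several arrays carry a label or a value that touches the comparisons. All 5 Etopo Topo arrays, WT Etopo 3 and WT DMSO 3 were taken at an age of 4 weeks, and the remaining ones at 6 weeks. WT Etopo Topo 1 and 2 have a treatment label that gives Etopo alone. KO Etopo Topo 1 had the narrowest spread of values, with 3.89 log2 units between the 10th and 90th percentile against up to 5.01 elsewhere. KO DMSO 1 and WT DMSO 1 were high in thymocyte transcripts, with means over 15 such genes of 8.72 in KO DMSO 1 and 8.22 in WT DMSO 1. The 3 arrays labelled male showed Xist at 11.92 to 12.13, within the 11.38 to 12.56 of the other 19. Whether the replicates are separate animals or pooled ones is not stated in the labels, and the p-values therefore cover the variation among the arrays at hand, part of which may be technical. In sorted bulk RNA, fewer cells that express a gene and less RNA of it per cell cannot be told apart.

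Promoter sequence was at hand for 5 of the 10 genes, as 300 bases from 250 before to 50 after the annotated start in RefSeq (GRCm38.p6). Shown here are Pgc and Gkn2, which fell in KO and in WT under Etopo Topo, and Vil1, which fell in neither. Sequences run 5′ to 3′ on the strand of the gene, and capitals mark TATAAA, the core of a TATA box, searched on that strand. The windows are chr17:47726592-47726891 on the plus strand for Pgc, chr6:87373115-87373414 on the plus strand for Gkn2 and chr1:74409134-74409433 on the plus strand for Vil1.
Pgc: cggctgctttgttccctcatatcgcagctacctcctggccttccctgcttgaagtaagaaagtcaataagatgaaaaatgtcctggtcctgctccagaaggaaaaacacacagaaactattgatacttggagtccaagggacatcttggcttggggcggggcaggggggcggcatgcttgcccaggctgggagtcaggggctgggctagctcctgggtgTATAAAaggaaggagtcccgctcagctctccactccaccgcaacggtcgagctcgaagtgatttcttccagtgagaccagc
Gkn2: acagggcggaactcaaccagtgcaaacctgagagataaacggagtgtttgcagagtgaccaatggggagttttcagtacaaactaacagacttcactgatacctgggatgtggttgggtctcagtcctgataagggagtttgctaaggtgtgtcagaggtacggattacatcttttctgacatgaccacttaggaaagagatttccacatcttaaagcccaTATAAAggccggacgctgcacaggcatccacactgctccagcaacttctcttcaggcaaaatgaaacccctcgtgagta
Vil1: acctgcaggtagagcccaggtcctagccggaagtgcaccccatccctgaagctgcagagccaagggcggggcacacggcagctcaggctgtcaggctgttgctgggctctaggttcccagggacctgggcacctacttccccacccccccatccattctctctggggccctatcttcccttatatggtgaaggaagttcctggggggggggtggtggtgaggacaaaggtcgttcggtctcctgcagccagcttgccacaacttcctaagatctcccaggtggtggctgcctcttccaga
TATAAA began 31 bases before the start in Pgc and 29 bases before it in Gkn2, and the window of Vil1 held none. The windows of Gkn1 and Fabp2 did not hold it on their own strand. Fabp2 fell in KO and in WT under Etopo Topo, as Pgc and Gkn2 did, and Gkn1 fell in KO but was not called in WT under Etopo Topo. A link between these letters and the calls was not tested. Of 32851 promoters of the same length, 8.32% held these letters on the strand of their gene. AGATAA, a motif of GATA factors searched on both strands, was in the windows of Gkn1 and Gkn2 and in 11.2% of all promoters. GGGCGG, the core of an Sp1 box searched likewise, was in Pgc, Gkn2 and Vil1 and in 35.7% of all promoters. These matches describe letters in the windows and show no binding.

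The first comparison asks which of these antigens differed with Aire in cells without drug. Under DMSO, 9 of the 10 genes fell in KO, where 12% of all genes were called lower. Car1 and Pgc showed the largest differences of the group and Gkn1 the smallest among the 9. The median log2 change of the 10 was -1.91, against -0.01 over all genes. Vil1 was the 1 gene not called. In each of the 10, every KO array lay below every WT array, Vil1 included, which is no call for Vil1. How many of all genes were separated in this way was not counted, here or in the comparisons below.

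Among stomach products, Pgc encodes progastricsin, the precursor of the digestive protease gastricsin made by chief cells. Its log2 intensity was 6.70, 6.82 and 6.85 in KO DMSO, against 10.42, 10.11 and 10.74 in WT DMSO. All 3 KO arrays lay more than 3 log2 units below the WT arrays, and the change was -3.63 ± 0.16 (SE; adjusted p = 1.03e-12), a 12.4-fold lower intensity. Gkn1 and Gkn2 encode gastrokines, small secreted proteins of the surface mucous cells. Gkn2 read 6.25, 6.18 and 6.38 in KO DMSO, against 8.52, 8.47 and 8.06 in WT DMSO, a change of -2.08 ± 0.17 (adjusted p = 6.85e-09). Gkn1 was 7.21 to 7.26 in KO DMSO, against 7.97 to 8.17 in WT DMSO, and fell by 0.81 ± 0.13 on the log2 scale (adjusted p = 7.64e-05). Gkn2, its neighbour on the chromosome, changed by more than 1 log2 unit more.

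The trefoil factors are short secreted peptides that stabilise mucus and help to repair epithelium. Tff1 and Tff2 are products of the stomach, the first of surface cells and the second of neck cells, and Tff3 is a product of intestinal goblet cells. Tff3 had 7.80, 8.34 and 8.53 in KO DMSO, against 11.01, 11.29 and 10.94 in WT DMSO. It fell by 2.86 ± 0.17 (adjusted p = 3.72e-11), or 7.26-fold. Tff1 had 8.25, 8.52 and 8.27 in KO DMSO, against 9.96, 10.19 and 9.84 in WT DMSO, and fell by 1.65 ± 0.15 (adjusted p = 4.64e-08). Tff2 had 7.70, 8.16 and 7.80 in KO DMSO, against 8.98, 9.25 and 8.83 in WT DMSO, and fell by 1.13 ± 0.14 (adjusted p = 2.43e-06). The groups of all 3 trefoil genes stood apart, by the widest gap in Tff3.

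Among intestinal products, Car1 encodes a carbonic anhydrase found in the colon and in red cells. It had 6.09, 6.17 and 6.25 in KO DMSO, against 10.50, 10.63 and 10.64 in WT DMSO. The change of -4.42 ± 0.25 (adjusted p = 2.67e-11), a 21.4-fold lower intensity, ranked 7 from the lowest among all genes. Because Car1 is also a red cell gene, erythroid genes were read beside it. Of 8 measured, 3 fell (Rhag at -1.09, Slc4a1 at -1.02 and Rhd at -0.59) and 0 rose, with a median of -0.33. Their mean level was 7.03 to 7.13 in KO DMSO and 7.44 to 7.63 in WT DMSO. The highest value of each on any array ran from 5.67 for Rhag to 9.19 for Alas2. Hbb and Hba genes were not among those measured, and the part of red cells in the Car1 result was not tested.

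Retnlb encodes a resistin-like protein secreted by goblet cells, which acts on bacteria of the gut. It read 5.46, 5.46 and 5.29 in KO DMSO, against 7.61, 7.68 and 8.19 in WT DMSO, and fell by 2.42 ± 0.28 (adjusted p = 1.05e-06). Fabp2, the fatty acid carrier of enterocytes, read 6.15, 5.96 and 6.05 in KO DMSO, against 8.19, 7.80 and 7.39 in WT DMSO, and fell by 1.74 ± 0.24 (adjusted p = 1.35e-05). Its WT arrays had an SD of 0.40, the widest of the 10 genes in that group.

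Vil1 encodes villin, which bundles actin in the brush border. It read 8.40, 8.85 and 8.78 in KO DMSO, against 9.26, 9.03 and 8.88 in WT DMSO. The change of -0.38 ± 0.20 was not called (adjusted p = 0.213), and its 95% interval ran from -0.80 to 0.03. The changes of the other 9 genes were each at least 0.81 in size. The interval of Gkn1, the smallest of them, ran from -1.07 to -0.54 and overlapped that of Vil1. No difference between genes was tested. Villin is also made by tuft cells, and 0 of 13 genes of tuft-like thymic cells were called in either direction here, with means of 8.93 to 9.23 in KO DMSO and 9.04 to 9.26 in WT DMSO.

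**Figure D1:**
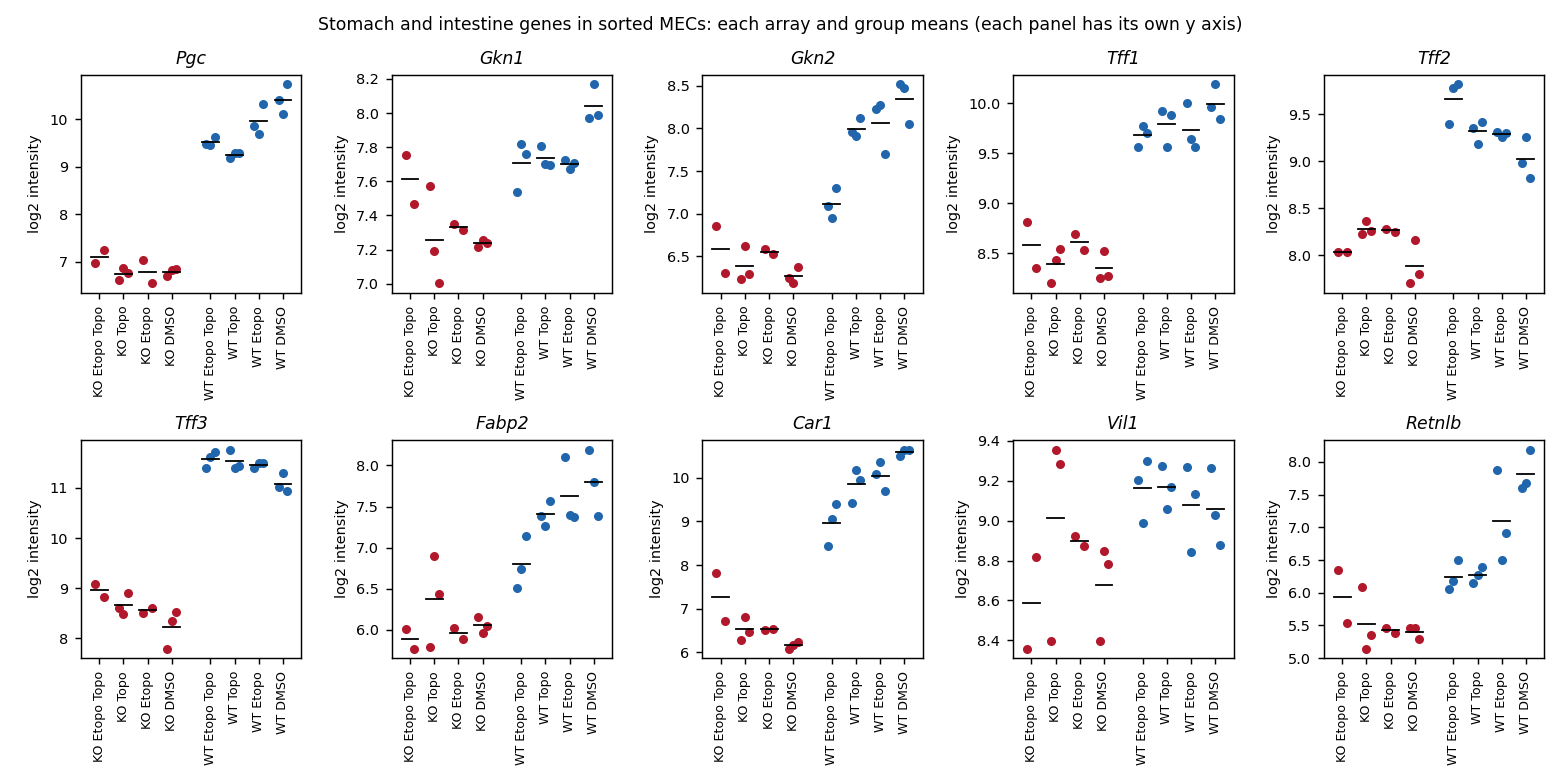
Log2 array intensity of the 10 genes on each of the 22 arrays, with KO groups in red and WT groups in blue; horizontal lines are group means, and each panel has its own vertical scale. In 9 genes the KO DMSO arrays sit well below the WT DMSO arrays, for Car1 at 6.09 to 6.25 against 10.50 to 10.64, whereas Vil1 differs little.

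Other genes of the digestive tract were read for context. Of 27 other stomach products, 17 fell and 2 rose in KO under DMSO, against 12% of all genes lower and 7.4% higher, with a median of -0.67. Among them Lipf, the gastric lipase, changed by -3.63, Psca by -3.51, the mucin Muc5ac by -3.40 and the hormone Sst by -2.86. Of 77 other intestinal products, 37 fell and 0 rose, with a median of -0.49. The resistin-like gene Retnla changed by -3.75, Reg4 by -2.94, Car4 by -2.88 and the goblet mucin Muc2 by -2.54. Of 30 transcription factors of the gut, 9 fell and 1 rose, with a median of -0.18, and those that fell most were Neurog3 (-1.02), Creb3l1 (-0.98), Gata5 (-0.89) and Gata4 (-0.78). The 10 genes had a lower median than either list of digestive products, and no test was made between the lists.

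The same comparison under each drug asks whether the difference between genotypes held in treated cells. Under Etopo, 8 of the 10 fell in KO against WT, where 8.07% of all genes were lower. Under Topo it was also 8, with 9.62% of all genes lower, and under Etopo Topo it was 6, with 6.12% lower. Pgc, Tff1, Tff2, Tff3, Fabp2 and Car1 fell under all 4 treatments. Each of these comparisons has its own KO and WT arrays. Other markers moved with genotype under the drugs as well. Under Etopo 8 of 11 mitosis genes fell (median -1.11), with means of 7.93 to 8.17 in KO Etopo and 8.90 to 9.09 in WT Etopo. Under Etopo Topo 6 of 13 tuft-like genes fell (median -0.50), with means of 9.18 to 9.91 in KO Etopo Topo and 10.10 to 10.23 in WT Etopo Topo. The part of either in the results of the 10 genes was not tested. Gkn1 was not called under Etopo (-0.37, adjusted p = 0.109) or Etopo Topo (-0.09, adjusted p = 0.742) but fell under Topo by 0.48 ± 0.13 (adjusted p = 0.0123), a call lost without KO Topo 2, KO Topo 3 or WT Topo 1. Retnlb fell under Etopo by 1.67 ± 0.31 (adjusted p = 0.000624) and was not called under Topo (-0.74, adjusted p = 0.0747; called without KO Topo 1, at -1.02, adjusted p = 0.0169) or Etopo Topo (-0.30, adjusted p = 0.606).

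Sizes changed with the treatment most in Car1. Its difference was -1.68 ± 0.28 under Etopo Topo (adjusted p = 0.000345), -3.32 under Topo, -3.52 under Etopo and -4.42 under DMSO. Under Etopo Topo it was -2.23 without KO Etopo Topo 1 and -1.13 without KO Etopo Topo 2, both called. That of Pgc was -2.41 under Etopo Topo, -2.51 under Topo, -3.17 under Etopo and -3.63 under DMSO. Gkn2 stood at -0.53 under Etopo Topo, not called (adjusted p = 0.0788; called without KO Etopo Topo 1, at -0.81, adjusted p = 0.0281), at -1.62 under Topo, at -1.51 under Etopo and at -2.08 under DMSO. Tff3 differed little across the treatments, with -2.62 under Etopo Topo, -2.86 under Topo, -2.90 under Etopo and -2.86 under DMSO. Fabp2 under Etopo Topo, at -0.91 ± 0.27 (adjusted p = 0.0319), lost its call when any 1 of 4 arrays of the compared groups was left out, KO Etopo Topo 1 and 2 among them (-1.03 and -0.79). Vil1 was not called under any treatment and stood at -0.57 under Etopo Topo (adjusted p = 0.113; called without KO Etopo Topo 2, at -0.80, adjusted p = 0.0360).

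**Figure D2:**
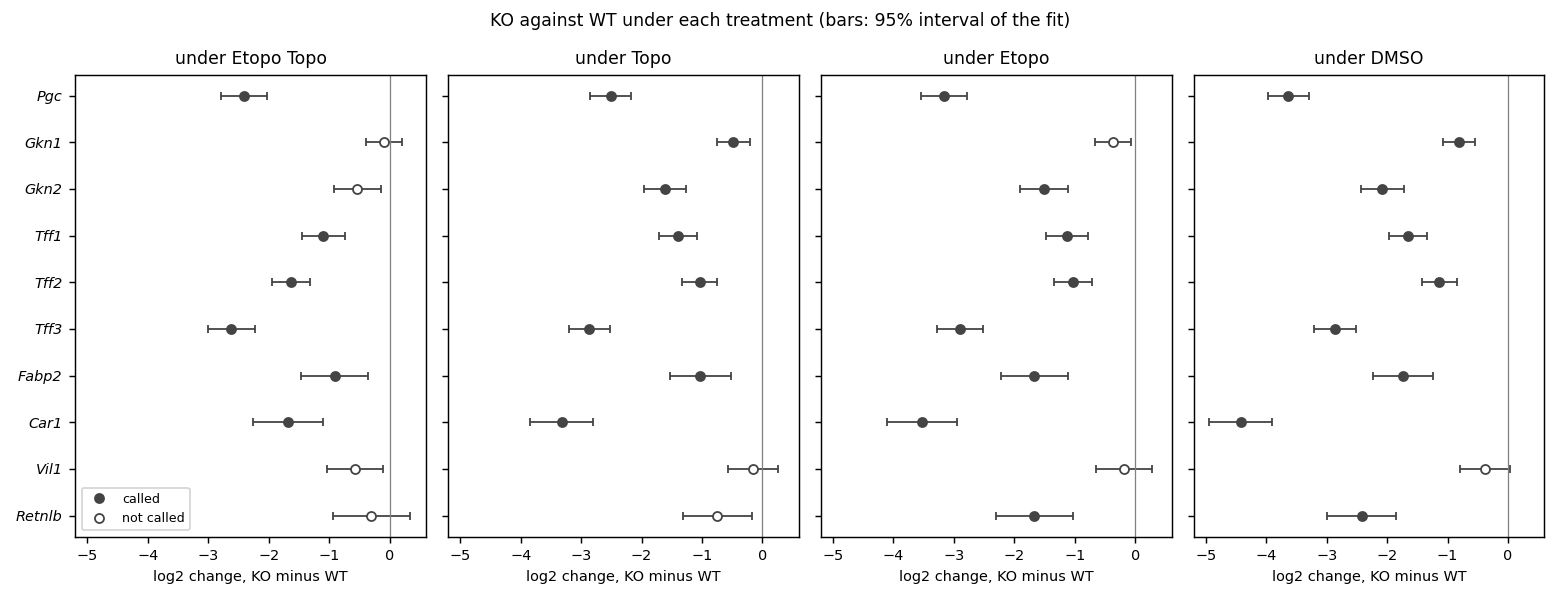
Log2 change of KO against WT for each gene under the 4 treatments, on 1 shared scale; bars are 95% intervals of the fit, filled points were called and open points were not. Car1 stands at -1.68 under Etopo Topo and at -4.42 under DMSO, while Tff3 lies between -2.90 and -2.62 in all 4.

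The drugs were then compared with DMSO in WT cells, which asks whether these antigens respond to topoisomerase inhibitors where Aire is present. Etopo alone gave 0 calls among the 10 genes in limma, with 0.00506% of all genes called. At an unadjusted p under 0.05 it was 5 genes, with 5.55% of all genes past that mark. Those were Retnlb (-0.73), Car1 (-0.54), Pgc (-0.46), Gkn1 (-0.34) and Tff3 (0.38). Retnlb read 7.88, 6.50 and 6.92 in WT Etopo, with the first array inside the WT DMSO range and the other 2 below it.

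Topo alone lowered 2 of the 10 in WT, where 1.38% of all genes were lower and 0.83% higher, and raised none of them. Retnlb read 6.16, 6.27 and 6.39 in WT Topo, against 7.61, 7.68 and 8.19 in WT DMSO. Its change of -1.55 ± 0.28 (adjusted p = 0.00417) was the lowest of all 19752 genes in this comparison. Pgc read 9.20, 9.29 and 9.29 in WT Topo, against 10.42, 10.11 and 10.74 in WT DMSO, and fell by 1.16 ± 0.16 (adjusted p = 0.00136). Both WT Topo groups were tight and lay wholly below the DMSO arrays. Car1 read 9.43, 10.16 and 9.95 in WT Topo and was not called (-0.74 ± 0.25, adjusted p = 0.157). Beside these, 6 of 13 tuft-like genes rose (median 0.64; means of 9.73 to 9.98 in WT Topo and 9.04 to 9.26 in WT DMSO) and 3 of 11 mitosis genes fell (median -0.72; means of 8.18 to 8.64 in WT Topo and 8.97 to 9.14 in WT DMSO), and their part was not tested. Of the other stomach products 4 fell and 1 rose, with Lipf at -0.99 and Mucl3 at -0.76. Of the other intestinal products 5 fell and 4 rose. Retnla, next to Retnlb on the chromosome, fell by 1.23, while the gut genes Spink1 (1.31), Agr2 (1.11) and Sis (0.97) rose.

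Etopo Topo lowered 5 of the 10 in WT and raised 1, against 7.28% of all genes lower and 3.6% higher. Car1 read 8.44, 9.04 and 9.40 in WT Etopo Topo, against 10.50, 10.63 and 10.64 in WT DMSO, a change of -1.63 ± 0.25 (adjusted p = 0.000248). Retnlb read 6.05, 6.18 and 6.50 in WT Etopo Topo and fell by 1.58 ± 0.28 (adjusted p = 0.00081), close to its level under Topo alone. Gkn2 read 7.09, 6.95 and 7.30 in WT Etopo Topo, against 8.52, 8.47 and 8.06 in WT DMSO, a change of -1.23 ± 0.17 (adjusted p = 9.02e-05). In these 3 genes every treated array lay below every control array. Fabp2 read 6.51, 6.74 and 7.14 in WT Etopo Topo and fell by 1.00 ± 0.24 (adjusted p = 0.00985), a call lost without WT DMSO 1 (-0.80, adjusted p = 0.0742). Pgc read 9.48, 9.47 and 9.62 in WT Etopo Topo and fell by 0.90 ± 0.16 (adjusted p = 0.00129).

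Of the trefoil genes only Tff2 was called. It read 9.39, 9.78 and 9.82 in WT Etopo Topo, against 8.98, 9.25 and 8.83 in WT DMSO, and rose by 0.64 ± 0.14 (adjusted p = 0.00437). Tff3 read 11.39, 11.62 and 11.72 in WT Etopo Topo and stood at 0.49 ± 0.17 above DMSO, not called (adjusted p = 0.0585), though it was called without WT Etopo Topo 1 (0.59, adjusted p = 0.0480) or WT DMSO 2 (0.60, adjusted p = 0.0481). For both genes all treated arrays lay above all control arrays. Tff1, their neighbour, read 9.56, 9.78 and 9.70 in WT Etopo Topo and stood at -0.31 ± 0.15 (adjusted p = 0.193). Gkn1 stood at -0.34 ± 0.13 (adjusted p = 0.0938) and Vil1 at 0.11 ± 0.20 (adjusted p = 0.781, 95% interval -0.31 to 0.52). Of the tuft-like genes 11 of 13 rose in the same comparison, with means of 10.10 to 10.23 in WT Etopo Topo, against 9.04 to 9.26 in WT DMSO. Sh2d6 rose by 1.66 and the taste G protein gene Gnat3 by 1.55, and their part in the Tff2 result was not tested. Of the 8 erythroid genes 3 fell, Epb42 at -0.95, Alas2 at -0.75 and Slc4a1 at -0.44, and 0 rose, and their part in the Car1 result was not tested.

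The Etopo Topo arrays differ from most DMSO arrays in age, so values within 1 age are given as well. Among the arrays of 4-week-old mice there is 1 WT DMSO array, which the fit assumes to vary like the other groups, and the change was -1.68 for Car1, -1.94 for Retnlb, -1.21 for Pgc, -0.94 for Gkn2, -0.59 for Fabp2 and 0.84 for Tff2. None of the 6 was called there, and with a single control array this says little about the effect of age. With age as a term in the fit, 5 of the 6 were called, and Fabp2 was not (-0.67, adjusted p = 0.259). With only WT Etopo Topo 3, whose labels agree on the treatment, the treated group is 1 array that is assumed to vary like the other groups. Gkn2 (-1.04, adjusted p = 0.0409) and Tff2 (0.80, adjusted p = 0.0409) were called in that fit. Car1 was then at -1.19 (adjusted p = 0.078), Retnlb at -1.32 (adjusted p = 0.111), Pgc at -0.80 (adjusted p = 0.111) and Fabp2 at -0.66 (adjusted p = 0.369).

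Of the other stomach products, 10 fell and 1 rose in WT under Etopo Topo, with a median of -0.27. Lipf stood at -1.79, Mucl3 at -1.11 and Vsig1 at -0.93, while Itprid1 rose by 1.03. The other intestinal products were split, with 11 fallen and 8 risen of 77 and a median of -0.01. Those that fell most were Reg4 (-1.82), the bile acid carrier Fabp6 (-1.62), Retnla (-1.35) and the serotonin enzyme Tph1 (-1.22). Of the 30 gut transcription factors 0 fell and 2 rose, Ehf by 0.65 and Klf5 by 0.60.

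**Figure D3:**
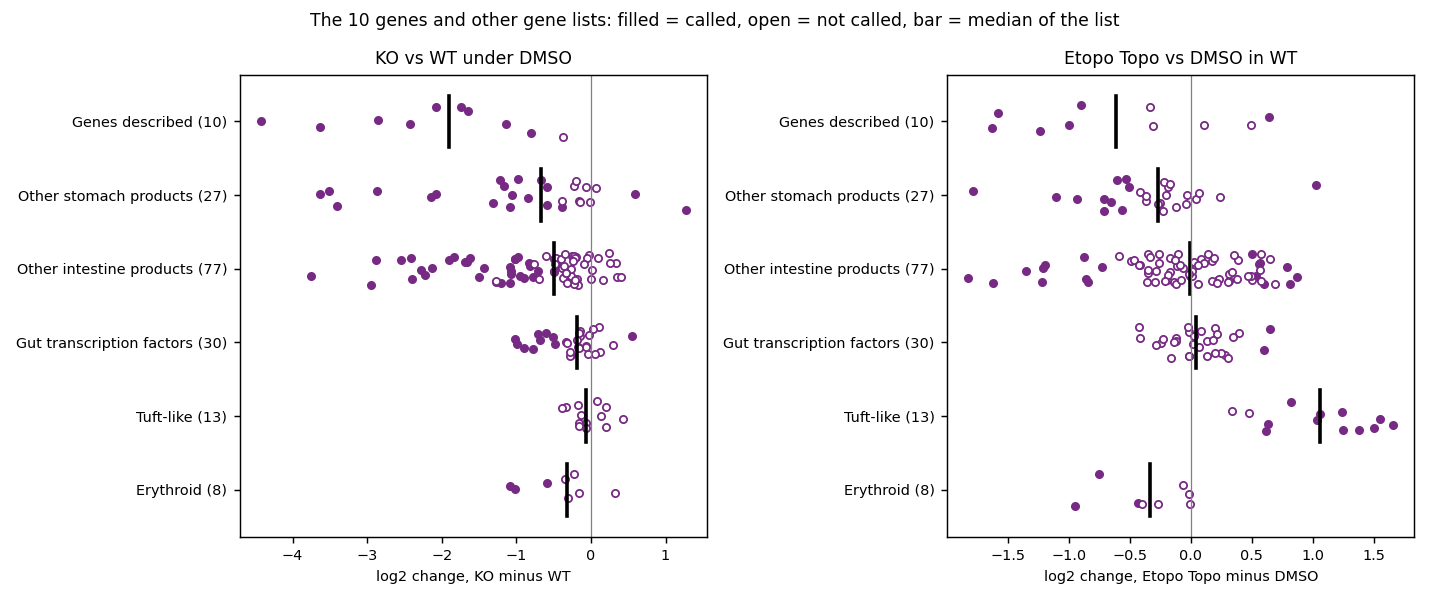
Log2 changes of the 10 genes and of 5 gene lists, for KO against WT under DMSO (left) and for Etopo Topo against DMSO in WT (right); points are genes, filled where called, and bars are list medians. The 10 genes have medians of -1.91 on the left and -0.62 on the right, where the tuft-like list sits at 1.06.

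The same drugs were compared with DMSO in KO cells, which asks what they did without Aire. Etopo gave 0 calls among the 10 in limma and 0% of all genes, with 1 of the 10 at an unadjusted p under 0.05 (Tff2, 0.38) and 3.58% of all genes past that mark. Topo gave 0 calls, with 1.03% of all genes called, and 2 of the 10 at an unadjusted p under 0.05 (Tff2 at 0.39 and Tff3 at 0.45), with 11.6% of all genes past it. Pgc read 6.62, 6.86 and 6.76 in KO Topo and 7.03 and 6.55 in KO Etopo, against 6.70, 6.82 and 6.85 in KO DMSO. Retnlb read 6.09, 5.15 and 5.36 in KO Topo, against 5.46, 5.46 and 5.29 in KO DMSO. The change with Topo in KO had a 95% interval of -0.38 to 0.30 for Pgc and of -0.44 to 0.70 for Retnlb. In KO DMSO both genes already had dim probes, with means at the 25.1 percentile of all genes for Pgc and the 8.12 percentile for Retnlb, so a further fall may not have been measurable there.

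Etopo Topo raised 2 of the 10 in KO and lowered none, where 11.1% of all genes were higher and 11.7% lower. Car1 read 7.83 and 6.73 in KO Etopo Topo, against 6.09, 6.17 and 6.25 in KO DMSO, a change of 1.11 ± 0.28 (adjusted p = 0.0133). Tff3 read 9.09 and 8.82 in KO Etopo Topo, against 7.80, 8.34 and 8.53 in KO DMSO, and rose by 0.74 ± 0.19 (adjusted p = 0.0134). Both calls rested on KO Etopo Topo 1, the array with the narrowest spread. Without it Car1 stood at 0.56 (adjusted p = 0.446) and Tff3 at 0.60 (adjusted p = 0.257), and 0 of the 10 were called. Without KO Etopo Topo 2 it was 5 of the 10, with Car1 at 1.66. All KO DMSO arrays were of 6 weeks and all KO Etopo Topo arrays of 4 weeks, so age and treatment cannot be told apart in KO, except through the age term shared with WT arrays, with which neither was called (Car1 1.33, adjusted p = 0.156).

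The other lists in KO under Etopo Topo stand against 11.1% of all genes higher and 11.7% lower, with a median of 0.06. This group has 2 arrays, and the lists were not recomputed without KO Etopo Topo 1, the array with the narrowest spread. Of the other stomach products 6 rose and 1 fell, with a median of 0.18, and Psca rose by 1.39. Of the other intestinal products 11 rose and 4 fell, with a median of 0.24. Apoc3, an apolipoprotein gene of enterocytes, rose by 1.26 and Retnla by 0.94, while the brush border protease gene Mep1a (-1.01) and the Paneth cell gene Lyz1 (-0.98) fell. Among the gut transcription factors 6 rose and 0 fell, with Gata5 at 0.59, Gata4 at 0.57 and Isx at 0.56. The erythroid genes beside Car1 gave 1 rise (Slc4a1, 0.52) and 2 falls. Their mean was 7.39 in KO Etopo Topo 1 and 7.07 in KO Etopo Topo 2, against 7.03 to 7.13 in KO DMSO. The part of the erythroid genes in the Car1 result was not tested. Of the MEC genes 6 of 15 fell in KO under Etopo Topo. The mean over the list was 10.97 in KO Etopo Topo 1 and 11.48 in KO Etopo Topo 2, against 11.67 to 11.74 in KO DMSO.

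**Figure D4:**
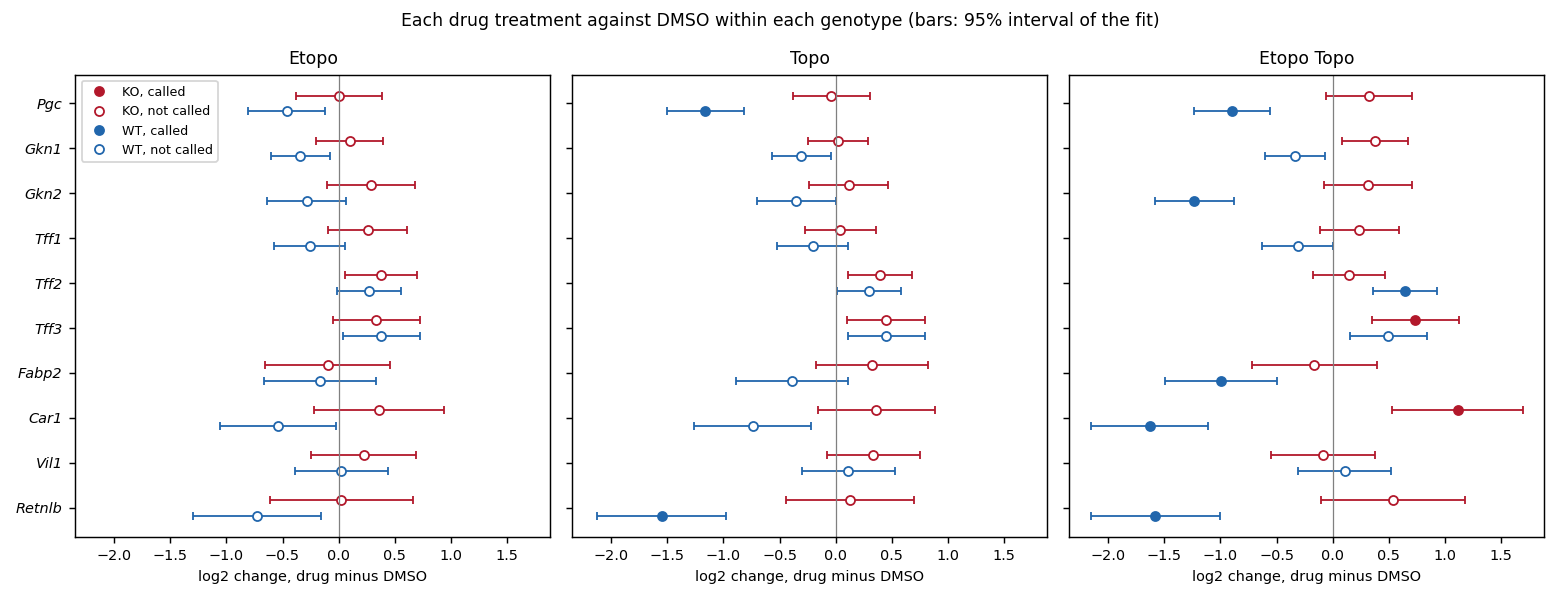
Log2 change of each drug treatment against DMSO in KO (red, upper point of each gene) and WT (blue, lower point); bars are 95% intervals of the fit and filled points were called. Under Etopo Topo, Car1 stands at 1.11 in KO and at -1.63 in WT, while Tff3 stands at 0.74 in KO and 0.49 in WT.

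Whether a drug acted differently in the 2 genotypes was tested directly, as the KO effect minus the WT effect. For Etopo 0 of the 10 differed, with 0% of all genes, although 4 of the 10 (Car1 at 0.90, Gkn2 at 0.57, Tff1 at 0.52 and Gkn1 at 0.44) had an unadjusted p under 0.05, against 4.59% of all genes. For Topo 0 of the 10 differed, with 0.0759% of all genes called. There 4 of the 10 had an unadjusted p under 0.05, against 4.74% of all genes, namely Retnlb (1.68, adjusted p = 0.107), Pgc (1.12, adjusted p = 0.0632), Car1 (1.10) and Fabp2 (0.71). Without WT DMSO 2, Pgc was called (1.28, adjusted p = 0.0314). Retnla and Muc2, from the list of other intestinal products, were called for Topo, at 1.46 and 1.04.

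For Etopo Topo 4 of the 10 differed, all with a higher effect in KO, where 2.35% of all genes were called in that direction. Car1 showed 2.74 ± 0.37 (adjusted p = 0.000371), which ranked 19751 of 19752 from the lowest. Retnlb showed 2.12 ± 0.41 (adjusted p = 0.00653), Gkn2 1.55 ± 0.25 (adjusted p = 0.00161) and Pgc 1.22 ± 0.25 (adjusted p = 0.00837). These 4 genes fell in WT, and in KO they stood at 1.11, 0.54, 0.31 and 0.32. Their means in KO DMSO were low on the array, at the 15.5 percentile of all genes for Car1, 8.12 for Retnlb, 16.9 for Gkn2 and 25.1 for Pgc. Little room was left for a fall in KO, so the lack of a fall there cannot be told apart from this lower limit of the measurement. The same holds for the Topo and Etopo differences of these genes. This limit bears on a fall and not on a rise. The rise of Car1 in KO by 1.11 was called, but not without KO Etopo Topo 1. Gkn1 was at 0.71 ± 0.19 and was not called (adjusted p = 0.0514). The trefoil genes were not called, with Tff1 at 0.55, Tff3 at 0.24 and Tff2 at -0.49. Of the other stomach products 6 of 27 differed and of the other intestinal products 7 of 77, all with a higher effect in KO. Without KO Etopo Topo 1, Car1 stood at 2.19 (adjusted p = 0.00628), Gkn2 at 1.27 (adjusted p = 0.0306) and Pgc at 1.36 (adjusted p = 0.0258), and Retnlb lost its call (1.71, adjusted p = 0.104). Without KO Etopo Topo 2, Gkn1 (0.85, adjusted p = 0.00843) and Tff1 (0.78, adjusted p = 0.0280) were called as well. With only WT Etopo Topo 3 in its group, again 1 array with its spread taken from the other groups, Car1 was called (2.30, adjusted p = 0.0169) and Gkn2, Pgc and Retnlb were not (1.36, 1.12 and 1.86, adjusted p = 0.0637, 0.157 and 0.154).

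The treatments were also compared among themselves in WT. Topo against Etopo gave 0 calls among the 10, with 0.00506% of all genes called. At an unadjusted p under 0.05 were Pgc (-0.70, adjusted p = 0.629) and Retnlb (-0.82, adjusted p = 0.998), against 4.45% of all genes. Against Topo alone, Etopo Topo had 1 of the 10 called lower, Gkn2 by 0.88 ± 0.17 (adjusted p = 0.0416), with 0.243% of all genes lower. Against Etopo alone 2 were called lower, Car1 by 1.09 ± 0.25 (adjusted p = 0.0233) and Gkn2 by 0.95 ± 0.17 (adjusted p = 0.00611), with 2.47% of all genes lower. All WT Topo arrays were of 6 weeks and all WT Etopo Topo arrays of 4 weeks, so age and treatment cannot be told apart between them. Of the WT Etopo arrays, only WT Etopo 3 was of 4 weeks. With age as a term in the fit, 0 of the 10 were called in either comparison. Gkn2 read 7.96, 7.91 and 8.12 in WT Topo and 8.23, 8.27 and 7.70 in WT Etopo, all above the 6.95 to 7.30 of WT Etopo Topo. The call of Gkn2 against Topo was lost when any 1 of the 6 arrays was left out (-0.98 to -0.80). Against Etopo, Gkn2 lost its call without WT Etopo 1 (-0.87, adjusted p = 0.0573). Car1 lost its own without WT Etopo Topo 1 or 2 (-0.83 and -1.13) or WT Etopo 1 or 2 (-1.07 and -0.93). Retnlb and Pgc were called in neither comparison. The difference of Etopo Topo against Topo was -0.03 for Retnlb (95% interval -0.60 to 0.54) and 0.27 for Pgc (-0.08 to 0.61). Against Etopo it was -0.85 for Retnlb (adjusted p = 0.0818; called with quantile normalization, at -0.98, and with array weights, at -0.71) and -0.43 for Pgc (adjusted p = 0.132).

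By their group means, the 10 genes fall into different orders over the 8 groups. Car1 ran from 6.17 ± 0.08 in KO DMSO through 7.28 ± 0.77 in KO Etopo Topo (n = 2) and 8.96 ± 0.49 in WT Etopo Topo to 10.59 ± 0.08 in WT DMSO (SD, n = 3). WT Etopo and WT Topo stood between these, at 10.05 ± 0.33 and 9.85 ± 0.38, and did not differ beyond their spread. Pgc was at 9.26 ± 0.05 in WT Topo and 9.52 ± 0.09 in WT Etopo Topo, below 9.96 ± 0.32 in WT Etopo, and its 4 KO groups lay within 6.75 to 7.11. Retnlb had WT Topo at 6.27 ± 0.12 and WT Etopo Topo at 6.24 ± 0.23, next to 5.94 ± 0.58 in KO Etopo Topo, whose range overlapped both. Tff2 and Tff3 had their highest means in WT Etopo Topo, at 9.66 ± 0.23 and 11.58 ± 0.17, and their lowest in KO DMSO. The group means of Vil1 spanned 0.58 log2 units, against 4.42 in Car1. Fabp2 and Gkn1 in KO lay within 5.89 to 6.38 and 7.24 to 7.61.

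Correlations over the 12 WT arrays describe which genes varied together, on arrays that share treatments, age and quality. Gkn2 went with Fabp2 (Pearson r = 0.888) and Car1 (0.882), Pgc with Retnlb (0.851) and Tff2 with Tff3 (0.835). Over the 10 KO arrays the same pairs had 0.253, 0.846, 0.0318 and 0.412. Pgc and Tff3 ran in opposite directions over the 12 WT arrays (-0.753). Over the 10 KO arrays r was 0.342, and over all 22 arrays it was 0.933. The 3 other genes most like each of the 4 genes with the widest range were found over all 22 arrays. For Car1 these were Tldc2 (0.985), Ces1a (0.984) and Gys2 (0.983), and for Pgc they were Gpr50 (0.993), Ngp (0.984) and Cytl1 (0.983). For Retnlb they were Lyg2 (0.946), Slc18a2 (0.945) and Prss34 (0.943), and for Tff3 Ifitm1 (0.983), Ptgds (0.980) and Mucl2 (0.978). Within WT alone the Car1, Pgc and Retnlb partners kept values of 0.830 to 0.959, and those of Tff3 had 0.397, -0.222 and -0.383. Within the 10 KO arrays the order was another, with 0.845, 0.782 and 0.520 for the Tff3 partners, 0.696 to 0.916 for those of Car1, 0.427 to 0.781 for those of Pgc and 0.500 to 0.783 for those of Retnlb.

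Several of the genes lie beside each other or beside relatives. In the RefSeq gene table, Gkn1, Gkn2 and Gkn3 were consecutive measured genes, as were Tff3, Tff2 and Tff1. Of the 14 nearest measured genes outside the group, 5 fell and 1 rose in KO under DMSO, against 12% of all genes lower and 7.4% higher. The 5 were Retnla (-3.75) beside Retnlb, Car3 (-2.82) and Car13 (-0.73) beside Car1, Gkn3 (-0.67) beside Gkn2 and Pde5a (-0.39) beside Fabp2, and Usp37 beside Vil1 rose by 0.58. The genes that flank the trefoil cluster, Abcg1 (-0.06, adjusted p = 0.899) and Tmprss3 (0.02, adjusted p = 0.943), and those on either side of Pgc, Frs3 (0.07, adjusted p = 0.748) and Tfeb (0.08, adjusted p = 0.735), were not called. In WT under Etopo Topo, 2 of the 14 were called, both lower (7.28% of all genes), Car3 (-1.47) and Retnla (-1.35), each beside one of the 10 that fell. Retnla and Retnlb, and the carbonic anhydrase genes, are related in sequence, and probes of close relatives can share signal.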

How the data were processed

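RNA of sorted MECs was read on Affymetrix ST1.0 arrays. Per the submitters' processing notes, the authors summarised the arrays by RMA with Affymetrix Power Tools, of unstated version, and the deposited values are intensities per probe set on a linear scale. The log2 of these deposited intensities was taken here, with no further normalization. Of 24922 probe sets, 21425 had 1 gene symbol in the platform annotation, 1399 had several and 2098 had none. For 921 genes with more than 1 probe set, the one with the highest mean was kept, which left 19752 genes. limma 3.58.1 in R 4.3.3 fitted 1 mean per group over all 22 arrays (lmFit, eBayes), 16 contrasts were read, and p-values were adjusted by Benjamini-Hochberg over all genes. The number of arrays, 2 or 3 a group, limits the precision.

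All 10 genes are named in every comparison, and of each other list at most the 4 called genes with the largest change. The 10 genes, the lists and the neighbours were chosen with earlier results of these data known. Groups come from the titles. The fit was tested on simulated data. Alternatives were quantile normalization, a filter on dim genes, the mean of all probe sets, only the groups compared, age as a term, the replicate number as a block, another variance model, array weights, and each array, or both with conflicting labels, left out. Chosen after seeing the data were only 4-week-old mice, and leaving out the arrays high in thymocyte transcripts or labelled male. Replicate numbers were not taken as pairs in the main fit. Arrays with the same number correlated at -0.56 to 0.59 in their deviations from the group means. Arrays with different numbers were not compared in this way, so the values cannot settle whether the numbers mark pairs.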

Additional observations from a re-analysis of the deposited data

Results flagged for a closer look

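The effect of a drug against DMSO differed between KO and WT, by the test of the difference itself, for 4 of the 10 genes and for genes of the other lists, of which at most the 4 largest of a list are given. For Etopo Topo the KO effect minus the WT effect was 2.74 log2 units for Car1, 2.12 for Retnlb, 1.55 for Gkn2 and 1.22 for Pgc. Among the other stomach products it was 2.16 for Lipf, 1.76 for Psca, 1.64 for Mucl3 and 1.00 for Muc5ac. Among the other intestinal products it was 2.29 for Retnla, 1.79 for Reg4, 1.48 for Alpi and 1.44 for Muc2, and among gut transcription factors 1.01 for Gata5. Outside the digestive lists it was 1.52 for Adgre1 and 1.18 for Xcr1, genes of macrophages and dendritic cells, 0.96 for the red cell gene Slc4a1 and -1.28 for the basal keratin gene Krt5. For Topo alone it was 1.46 for Retnla and 1.04 for Muc2. Each of these had an adjusted p under 0.05 in limma. The 4 of the 10 genes were already at the 8.12 to 25.1 percentile of all genes in KO DMSO, so a fall in KO may not have been measurable. The lack of a fall in KO cannot be told apart from that limit, which does not bear on a rise in KO. KO Etopo Topo has 2 arrays, of which the first has the narrowest spread of values of all 22. Without that array Car1 (2.19), Pgc (1.36) and Gkn2 (1.27) stayed called for Etopo Topo and Retnlb (1.71, adjusted p = 0.104) did not, and the genes of the other lists were not recomputed.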

How the results depend on the processing

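Of the log2 changes of the 10 genes recomputed under the alternatives, 2502 kept direction and call, 63 lost the call and 53 gained it, and 0 changed sign as called values. The count of genes called was within 1.5 times in 227 cases and moved in 38. The counts for KO against WT stayed within that margin under every alternative. With array weights, a fit that stopped before it converged, the count was 5 for Etopo in WT (0 as reported), 6 for Topo in WT (2), 3 for Topo in KO (0), 0 for Etopo Topo in KO (2), 3 for Etopo Topo against Topo (1), 5 against Etopo (2), and 3, 3 and 2 for the difference between genotypes under Etopo, Topo and Etopo Topo (0, 0 and 4). With genes below the 25th percentile of mean level left out, which leaves 8 of the 10, Topo in WT gave 1. Without both arrays of conflicting labels, Etopo Topo in WT gave 2 (6), its comparisons with Topo and Etopo 0 each, and the difference between genotypes 1. With only 4-week-old mice, Etopo Topo gave 0 in WT against DMSO and 0 against Etopo. With only the groups compared, Etopo Topo gave 0 in KO and 3 against Topo in WT. With age as a term, Etopo Topo gave 0 in KO, 0 against Topo and 0 against Etopo. Without the 3 arrays labelled male, the counts against Topo and Etopo were 0. With an intensity trend and robust variances, the difference under Topo gave 1. With the replicate number as a block, Etopo Topo against Topo gave 0 in place of 1 (Gkn2, adjusted p = 0.0525), and no other count moved. Leaving out 1 array at a time gave 0 to 5 for Etopo Topo in KO, 0 to 0 against Topo, 0 to 3 against Etopo, and 0 to 1 for the difference under Topo. The causes were not tested beyond the smaller number of arrays or genes these settings leave. With 2 or 3 arrays a group and no depth to count, small changes such as those of Gkn1 and Vil1 are those least resolved.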

Other observations

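Markers of other cells of the thymus were read on the same arrays. Over all genes 12% were lower and 7.4% higher in KO under DMSO, 7.28% lower and 3.6% higher in WT under Etopo Topo, and 11.7% lower and 11.1% higher in KO under Etopo Topo. Genes of macrophages and dendritic cells fell in 4 of 12 cases and rose in 1 in KO under DMSO, and fell in 4 and rose in 0 in WT under Etopo Topo. In WT under Etopo Topo the macrophage gene Adgre1 stood at 6.53 in WT Etopo Topo and 7.89 in WT DMSO. Genes of mitosis fell in 9 of 11 cases in WT and in 8 of 11 in KO under Etopo Topo, and 0 differed between the genotypes in that effect. The lists that follow had too few calls to be set apart from those shares. Thymocyte genes fell in 2 of 15 cases in WT and 1 of 15 in KO under Etopo Topo. Called or not, 15 of the 15 were below 0 in WT and 12 in KO, against 51.2% and 45.0% of all genes. Their medians were -0.58 in WT and -0.59 in KO, against -0.01 and 0.06 over all genes. The DMSO groups of both genotypes hold an array high in these transcripts, and its part was not tested. B cell genes, with 8 measured, gave 1 rise and 1 fall in each genotype. Of 10 genes of cortical epithelium 1 fell in WT and 2 in KO, and of 8 genes of stroma and endothelium 0 were called in either.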
